A study of Mus musculus with 9 samples.

Results

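The genes described here are the Wnt ligands, their receptors and co-receptors, the secreted proteins that block them, and the feedback and transcription factor genes of the same pathway. They were listed by name, and the list was drawn up with earlier results of these data known. The list held 53 genes, of which 46 were matched by symbol to the 19044 gene identifiers of the table. *Wnt2*, *Wnt3*, *Wnt3a*, *Wnt7a*, *Sfrp2*, *Sfrp4* and *Rnf43* were without a match and are not analysed here. The matched genes were 11 ligands, 10 Frizzled receptors, 5 co-receptors and other receptors, 8 secreted antagonists, 2 co-receptors of the Dickkopf antagonists, 6 genes of feedback and receptor turnover, and 4 TCF/LEF factors.

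Wnt ligands are secreted, lipid-modified glycoproteins that bind Frizzled receptors on the cell surface. With LRP5 or LRP6 as a co-receptor, this binding stops the destruction complex from degrading beta-catenin, which then enters the nucleus and works with TCF/LEF factors on target genes. Other branches signal through ROR and RYK receptors or through planar cell polarity proteins, largely without beta-catenin. In skin the pathway is known for its part in hair follicle development and in the upkeep of epidermal stem cells.

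RNA was sequenced from mouse squamous cell carcinoma (SCC) cells that differ in focal adhesion kinase (FAK), a tyrosine kinase of integrin adhesions that is also found in the nucleus. The SCC cells came from chemically induced skin tumors of FVB mice of the genotype K14CreER FAK flox/flox, in which the keratin 14 promoter drives an inducible Cre. FAK was deleted in culture with 4-hydroxytamoxifen to give FAK-/- cells, and a FAK-/- clone was transduced by retrovirus with wild-type FAK (FAK-WT cells) or with a kinase-deficient mutant (FAK-kd cells). All 3 cell lines thus carry the deletion of the endogenous gene, both re-expressing lines were selected in hygromycin, and an effect of FAK cannot be told apart from a difference between the lines themselves. Each line had 3 biological replicates. The age of the mice and any empty vector in the FAK-/- cells are not given in the sources used here.

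The libraries held 25304994 to 37264636 counts, except FAK-WT replicate 1, which held 779755, or 2.31% of the median of the others. One count in that library stands for 1.26 CPM (counts scaled to library size with TMM factors), and 3 counts, the floor used here for detection, stand for 3.78 CPM. Values of weakly expressed genes in that library are therefore coarse, and intervals from counts cover counting error only. *Ptk2*, the gene of FAK, lay between 19.6 and 23.5 CPM in FAK-/- cells, between 155 and 176 CPM in FAK-kd cells and between 213 and 216 CPM in FAK-WT cells, so every library matched its label as FAK-/- or FAK-expressing. Gene counts cannot show the mutation that sets the FAK-kd label apart from FAK-WT. The squamous label was less well matched. Of 11 keratinocyte markers 9 were in the table, and in FAK-WT and FAK-/- cells only *Itgb4*, an integrin of hemidesmosomes, reached 1 CPM, while *Krt5*, *Krt14*, *Cdh1* and *Dsp* were at or near 0 in all 3 lines. In FAK-kd cells *Krt8* also reached 1 CPM. The summed keratinocyte markers, nearly all from *Itgb4*, came to 55.4 to 73 CPM in FAK-WT libraries and 75.8 to 103 CPM in the others. The summed fibroblast markers, nearly all from *Col3a1*, came to between 1318 and 1949 CPM, the leukocyte markers to at most 3.65 CPM, the endothelial markers to at most 2.05 CPM, the melanocyte markers, nearly all *Mitf*, to between 11.3 and 17.1 CPM, and the adipocyte markers to at most 0.0899 CPM.

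A gene was called at a Benjamini-Hochberg adjusted p of 0.05 or below over all 19044 genes (edgeR's quasi-likelihood test, two-sided) together with a change of 1 or more on the log2 scale in either direction. In FAK-WT cells 11 of the 46 members were lower than in FAK-/- cells and 0 were higher, where 3.06% of all genes were called lower and 2.32% higher. Against FAK-kd cells 11 members were again lower and 0 were higher, where 2.89% of all genes were called lower and 2.37% higher. The 2 comparisons use the same FAK-WT libraries and are not independent. Between the lines without FAK kinase activity fewer calls were made: 3 members were higher in FAK-kd than in FAK-/- cells and 1 was lower, where 0.914% of all genes were called higher and 1.09% lower. DESeq2 also called 0 members higher in FAK-WT cells in both comparisons, with 10 lower in each. It gave no adjusted p for 18 of the 46 members, which it could therefore not call. Of all 19044 genes, DESeq2 called 306 higher and 440 lower over FAK-/- cells, and 315 higher and 438 lower over FAK-kd cells. At an unadjusted p below 0.05 in edgeR, whatever the fold, 2 members were higher and 20 lower than in FAK-/- cells. By the same rule 1 was higher and 20 were lower than in FAK-kd cells. Here and below, the share of all genes at an unadjusted p was not counted, so such counts have no background.

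Expression limits how many members could be called. In every cell line 20 of the 46 stayed below a mean of 1 CPM, and 13 had at most 3 counts in each library. Of the 25 members with a mean of at least 1 CPM over the 3 lines, 9 were called lower and 0 higher in the comparison of FAK-WT with FAK-/- cells, where 3.68% of the 10912 genes at that level were called lower and 2.11% higher. Against FAK-kd cells 9 of the 25 were lower and 0 higher, where 3.62% and 1.93% of those genes were. In FAK-kd over FAK-/- cells 2 of the 25 were higher and 1 was lower, where 1.15% and 1.16% were. A member can reach that level through the line in which it is high, so these counts describe the expressed members and are no further support. The median log2 fold change of the 25, which the same selection touches, was -0.72 over FAK-/- and -0.60 over FAK-kd cells, beside -0.02 for all genes at that level in both. Between FAK-kd and FAK-/- cells the median of the 25 was -0.05, beside 0.01. Over all 46 members the medians were -0.58 over FAK-/- and -0.50 over FAK-kd cells, beside 0 for all genes in both. With lines at 0 counts set to the detection floor, they were -0.53 and -0.37. With no minimum fold change, 18 members were lower and 1 was higher than in FAK-/- cells, where 9.96% and 8.01% of all genes were, and 17 were lower and 1 was higher than in FAK-kd cells, where 10.2% and 7.58% were. By the same rule 4 members were higher and 4 were lower in FAK-kd over FAK-/- cells, where 3.97% and 3.88% of all genes were. In a bulk sample, fewer cells that express a gene and less RNA per cell cannot be told apart.

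**Figure D1:**
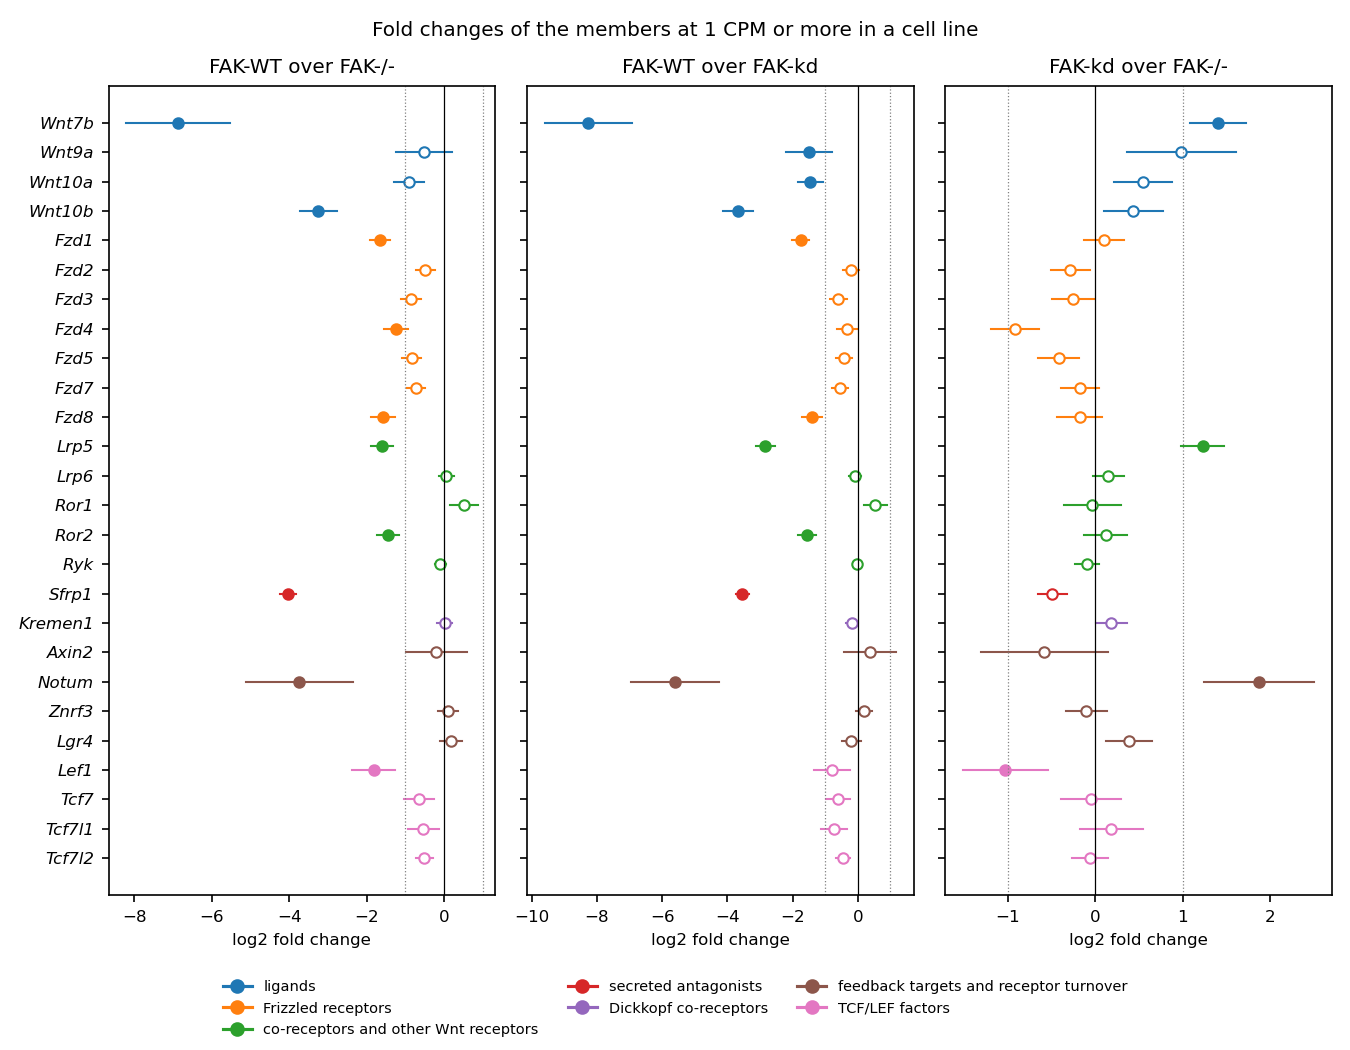
Log2 fold changes (points) with 95% intervals (lines) for the 26 members at a mean of 1 CPM or more in at least 1 cell line, in the 3 comparisons, with a separate axis range in each panel. Filled points are called, dotted lines mark a log2 fold change of 1 in size, and colors give the role. In both comparisons with FAK-WT cells every filled point lies to the left of 0, from *Fzd4* at -1.24 over FAK-/- cells and *Fzd8* at -1.39 over FAK-kd cells down to *Wnt7b* in both.

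Of the ligands, the 4 that reached 1 CPM were *Wnt7b*, *Wnt9a*, *Wnt10a* and *Wnt10b*, and each was called lower when FAK-WT cells were set against FAK-kd cells. *Wnt7b* and *Wnt10b* were also called lower than in FAK-/- cells. The other 7 ligands in the table, *Wnt2b*, *Wnt4*, *Wnt5a*, *Wnt5b*, *Wnt6*, *Wnt11* and *Wnt16*, had group means of at most 0.315 CPM, and none was called. *Wnt5a* and *Wnt11*, ligands known for signaling without beta-catenin, were thus scarcely detected.

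*Wnt7b* (ENSMUSG00000022382, mm10 chr15:85535437-85582473, minus strand), a ligand of lung, kidney and skin development, had the largest fold change of the members in both comparisons with FAK-WT cells. It was at 0, 0.0532 and 0.0865 CPM in the FAK-WT libraries, which are 5 counts in all. It was at 8.36, 7.53 and 9.41 CPM in the FAK-/- libraries and at 16.6, 24.9 and 25.6 CPM in the FAK-kd libraries. The 3 lines did not overlap, with FAK-kd cells highest and FAK-WT cells at the floor. From the summed counts, the *Wnt7b* level of FAK-WT cells was 124-fold lower than that of FAK-/- cells (95% interval 52.9 to 383) and 327-fold lower than in FAK-kd cells (140 to 1009). The fitted log2 fold changes were -6.86 (SE 0.63, adjusted p = 2.22e-09) and -8.27 (SE 0.63, adjusted p = 1.52e-10). FAK-kd cells also had more *Wnt7b* than FAK-/- cells, by 1.41 on the log2 scale (SE 0.15, adjusted p = 2.97e-05).

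*Wnt10b* (ENSMUSG00000022996, chr15:98770712-98778150, minus strand), which is known for promoting hair follicle growth, was at 0, 0.905 and 1.01 CPM in the FAK-WT libraries. It was at 8.39, 7.29 and 11 CPM in FAK-/- cells and at 11.9, 12.3 and 12.1 CPM in FAK-kd cells. Every FAK-WT library was below every other library. On the log2 scale the change was -3.24 over FAK-/- cells (SE 0.22, adjusted p = 5.63e-08) and -3.68 over FAK-kd cells (SE 0.22, adjusted p = 1.42e-08). FAK-kd and FAK-/- cells did not overlap either, but their difference of 0.44 on the log2 scale did not pass the test (adjusted p = 0.111).

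*Wnt10a* (ENSMUSG00000026167, chr1:74791516-74804179, plus strand), a ligand needed for teeth, hair and other skin appendages, was at 3.78, 3.86 and 3 CPM in FAK-WT cells, at 5.93, 5.64 and 7.78 CPM in FAK-/- cells and at 10.1, 9.26 and 8.99 CPM in FAK-kd cells. The 3 lines were in that order without overlap. The log2 fold change was -1.45 over FAK-kd cells (SE 0.18, adjusted p = 3.2e-05). Over FAK-/- cells it was -0.90 (SE 0.18, adjusted p = 0.00216), below the minimum fold change. *Wnt10a* lies 6194 bases from *Wnt6* on chromosome 1, and *Wnt6* was at most 0.0266 CPM in any line. *Wnt9a* (ENSMUSG00000000126, chr11:59306928-59333552, plus strand), a ligand of joint development, was the weakest ligand above 1 CPM. It was at 1.26, 0.692 and 0.577 CPM in FAK-WT cells, the first of these from 1 count, at 0.899, 0.71 and 1.22 CPM in FAK-/- cells and at 1.89, 2.01 and 1.73 CPM in FAK-kd cells. FAK-kd cells stood above both other lines, which overlapped. The log2 fold change of FAK-WT over FAK-kd cells was -1.51 (SE 0.33, adjusted p = 0.005), and without FAK-WT replicate 3 it was -1.34 with an adjusted p of 0.082.

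**Figure D2:**
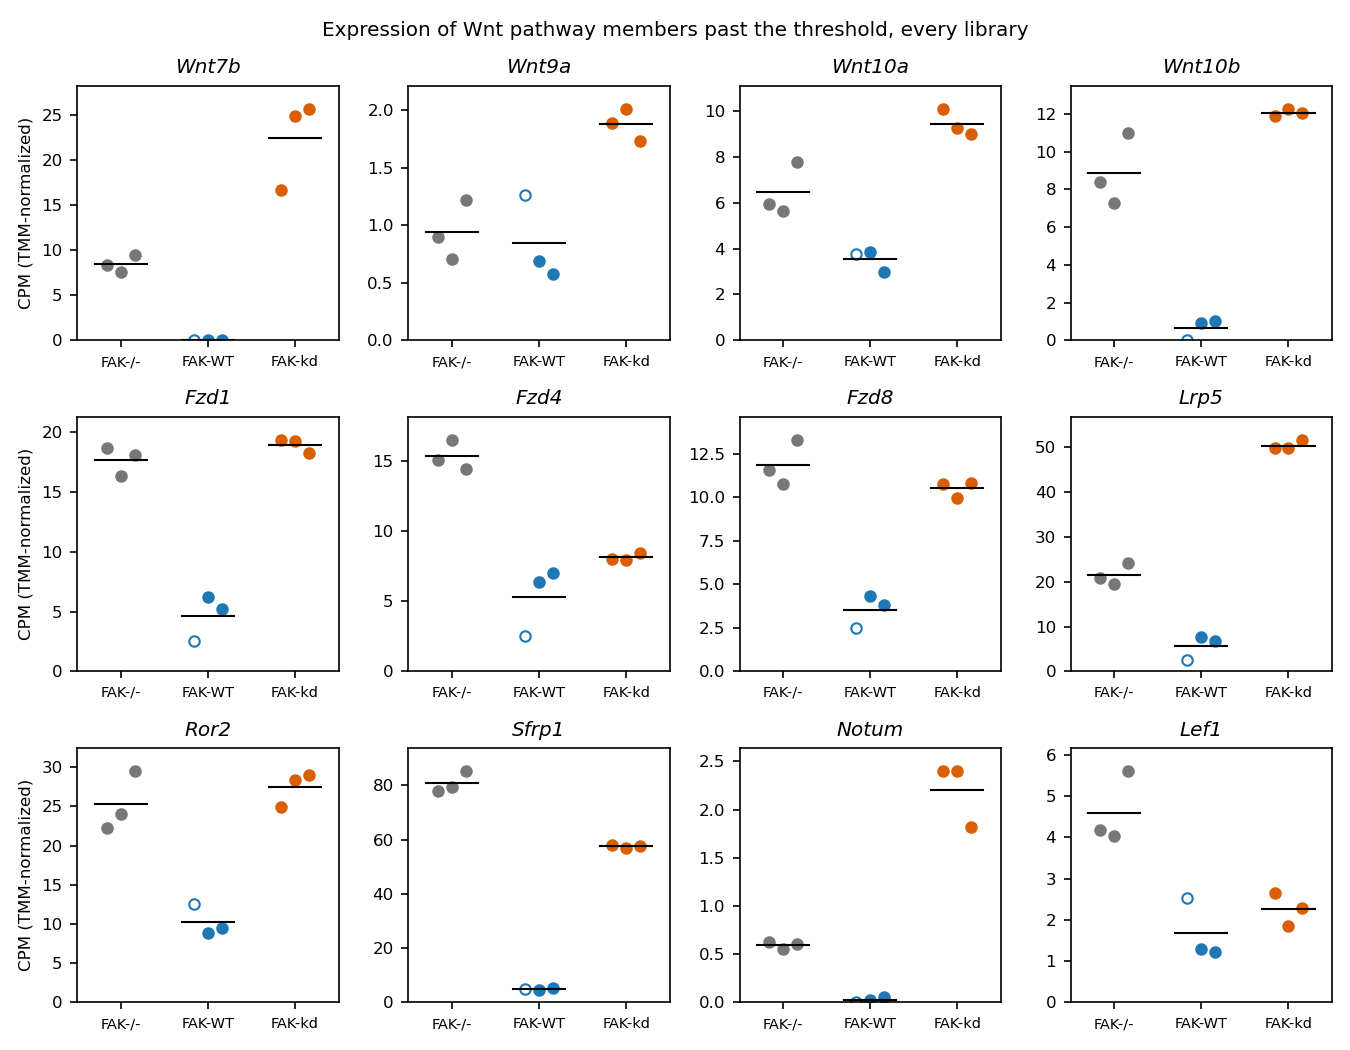
TMM-normalized CPM of the 12 members that were called and reached 1 CPM, in every library of FAK-/- (grey), FAK-WT (blue) and FAK-kd (orange) cells, with the mean of the 3 libraries as a line and a linear axis from 0 in each panel. The open symbol is the shallow FAK-WT replicate 1. FAK-WT cells have the lowest mean in all 12 panels, and the order of the other 2 lines varies, with FAK-kd highest for *Wnt7b*, *Lrp5* and *Notum* and FAK-/- highest for *Fzd4*, *Sfrp1* and *Lef1*.

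The Frizzled receptors are membrane proteins with 7 passes through the membrane and a cysteine-rich domain that binds the ligand. All 10 were in the table and 7 reached 1 CPM. In FAK-WT cells *Fzd1*, *Fzd4*, *Fzd8* and *Fzd9* were lower than in FAK-/- cells, and *Fzd1*, *Fzd8* and *Fzd9* were lower than in FAK-kd cells. Between FAK-kd and FAK-/- cells 0 were called by edgeR and 0 by DESeq2. At an unadjusted p below 0.05 in edgeR, 4 were lower and 0 higher in FAK-kd cells, with no count of all genes to set beside them.

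*Fzd1* (ENSMUSG00000044674, chr5:4753839-4758035, minus strand) was at 2.52, 6.25 and 5.22 CPM in FAK-WT cells, the first of these from 2 counts, at 18.6, 16.3 and 18.1 CPM in FAK-/- cells and at 19.3, 19.2 and 18.2 CPM in FAK-kd cells. FAK-WT cells stood apart and the other 2 lines overlapped. *Fzd1* gave a log2 fold change of -1.65 over FAK-/- cells (SE 0.13, adjusted p = 2.54e-07) and -1.75 over FAK-kd cells (SE 0.13, adjusted p = 1.34e-07). *Fzd8* (ENSMUSG00000036904) also had FAK-WT cells apart and below 2 overlapping lines, with 2.52, 4.31 and 3.81 CPM in FAK-WT cells, 11.6, 10.8 and 13.3 CPM in FAK-/- cells and 10.8, 9.95 and 10.8 CPM in FAK-kd cells. On the log2 scale the differences were -1.57 (SE 0.14, adjusted p = 1.58e-06) and -1.39 (SE 0.14, adjusted p = 5.48e-06).

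*Fzd4* (ENSMUSG00000049791, chr7:89404355-89413134, plus strand), which is also a receptor for the protein norrin, differed from *Fzd1* and *Fzd8* in the position of FAK-kd cells. It was at 2.52, 6.39 and 7.01 CPM in FAK-WT cells, at 15.1, 16.5 and 14.5 CPM in FAK-/- cells and at 8.03, 7.97 and 8.43 CPM in FAK-kd cells. FAK-kd cells lay between the other 2 lines with no overlap. Over FAK-/- cells the log2 fold change was -1.24 (SE 0.14, adjusted p = 1.46e-05), over FAK-kd cells it was -0.33 (SE 0.14, adjusted p = 0.141), and FAK-kd over FAK-/- cells gave -0.91 (SE 0.13, adjusted p = 0.000274), short of the minimum fold change. *Fzd9* never reached 1 CPM and is called from few reads, 2 counts in the FAK-WT libraries, 27 in FAK-/- and 39 in FAK-kd cells. From the summed counts its FAK-WT level was 11-fold lower than the FAK-/- level (95% interval 2.75 to 95.1) and 14.1-fold lower than in FAK-kd cells (3.65 to 121), and DESeq2 did not call it (adjusted p = 0.111 and 0.0586).

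The 4 Frizzled genes at 20 CPM or more in a line were not called in any comparison. *Fzd7* was at 25.8 ± 0.619 CPM in FAK-WT cells (mean ± SD, n = 3 in each line), 42.1 ± 6.05 CPM in FAK-/- cells and 37.4 ± 1.28 CPM in FAK-kd cells. *Fzd5* was at 27.5 ± 7.59, 54.4 ± 3.27 and 40.7 ± 3.07 CPM in the same order. Its FAK-WT libraries were at 18.9, 33.2 and 30.3 CPM, the first of these from 15 counts. All 4 had their lowest mean in FAK-WT cells by less than the minimum fold change. *Fzd3* was at 20.5 ± 0.516, 37.2 ± 6.39 and 31.3 ± 0.229 CPM, and *Fzd2* at 19.4 ± 0.507, 27.4 ± 4.14 and 22.5 ± 0.582 CPM. The log2 fold changes of FAK-WT over FAK-/- cells were -0.72 for *Fzd7* (adjusted p = 0.000274), -0.84 for *Fzd5* (adjusted p = 0.000135), -0.85 for *Fzd3* (adjusted p = 0.000152) and -0.48 for *Fzd2* (adjusted p = 0.00719). *Fzd6* and *Fzd10* were at most 0.0883 CPM.

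The co-receptor pair differed from each other. *Lrp5* (ENSMUSG00000024913, chr19:3584828-3686564, minus strand) and *Lrp6* (ENSMUSG00000030201, chr6:134446476-134566965, minus strand) encode related proteins that bind Wnt beside Frizzled and recruit axin when phosphorylated. *Lrp5* was at 2.52, 7.61 and 6.89 CPM in FAK-WT cells, at 20.9, 19.5 and 24.1 CPM in FAK-/- cells and at 49.7, 49.7 and 51.6 CPM in FAK-kd cells. The 3 lines did not overlap. The log2 fold change was -1.61 over FAK-/- cells (SE 0.13, adjusted p = 6.54e-07), -2.83 over FAK-kd cells (SE 0.13, adjusted p = 1.64e-09) and 1.23 for FAK-kd over FAK-/- cells (SE 0.11, adjusted p = 7.09e-06). *Lrp6* was at 93.2, 103 and 97.6 CPM in FAK-WT cells, at 99, 99.2 and 87.9 CPM in FAK-/- cells and at 93.9, 106 and 117 CPM in FAK-kd cells. All 3 lines overlapped for *Lrp6*, whose log2 fold change was 0.06 over FAK-/- cells (95% interval -0.13 to 0.25) and -0.09 over FAK-kd cells (95% interval -0.28 to 0.10). Per kilobase of the longest transcript, the mean level in FAK-WT cells was 10.5 CPM for *Lrp6* and 0.638 CPM for *Lrp5*, against 11.3 and 5.66 CPM in FAK-kd cells.

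*Ror2* (ENSMUSG00000021464, chr13:53109312-53286124, minus strand), a receptor tyrosine kinase-like receptor for Wnt5a, was at 12.6, 8.81 and 9.46 CPM in FAK-WT cells, at 22.3, 24.1 and 29.5 CPM in FAK-/- cells and at 24.9, 28.4 and 29 CPM in FAK-kd cells. FAK-WT cells were below both other lines, which overlapped. *Ror2* gave a log2 fold change of -1.44 over FAK-/- cells (SE 0.13, adjusted p = 1.66e-06) and -1.56 over FAK-kd cells (SE 0.13, adjusted p = 7.75e-07). Its relative *Ror1* was the single member with a higher value in FAK-WT cells that passed the adjusted p, at a smaller fold. *Ror1* was at 5.04, 9.42 and 9.69 CPM in FAK-WT cells, at 5.6, 6.58 and 7.17 CPM in FAK-/- cells and at 5.64, 6.71 and 6.59 CPM in FAK-kd cells. The shallow FAK-WT library, with 4 counts, lay below the other lines and FAK-WT replicates 2 and 3 lay above them. The log2 fold changes were 0.51 (SE 0.17, adjusted p = 0.0416) and 0.54 (SE 0.17, adjusted p = 0.0305), short of the minimum. *Ryk*, an atypical receptor kinase that binds Wnt ligands, was the most abundant member, at 259 ± 14.3 CPM in FAK-WT, 281 ± 10.1 CPM in FAK-/- and 264 ± 7.13 CPM in FAK-kd cells. Its log2 fold change was -0.10 over FAK-/- cells (95% interval -0.24 to 0.04).

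For *Ror2*, *Wnt10b* and *Fzd1* the 250 bases before the transcription start are shown, since both comparisons called each of them lower in FAK-WT cells and each reached 1 CPM. They are RefSeq sequence of GRCm38.p6, at chr13:53286125-53286374, chr15:98778151-98778400 and chr5:4758217-4758466, all on the minus strand and written 5′ to 3′. Capitals mark a match to the AP-1 core TGANTCA.

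Ror2: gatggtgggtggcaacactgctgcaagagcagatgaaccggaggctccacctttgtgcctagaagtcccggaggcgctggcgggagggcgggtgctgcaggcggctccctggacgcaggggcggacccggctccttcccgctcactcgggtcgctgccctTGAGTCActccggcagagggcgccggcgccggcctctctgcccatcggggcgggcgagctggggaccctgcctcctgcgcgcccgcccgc
Wnt10b: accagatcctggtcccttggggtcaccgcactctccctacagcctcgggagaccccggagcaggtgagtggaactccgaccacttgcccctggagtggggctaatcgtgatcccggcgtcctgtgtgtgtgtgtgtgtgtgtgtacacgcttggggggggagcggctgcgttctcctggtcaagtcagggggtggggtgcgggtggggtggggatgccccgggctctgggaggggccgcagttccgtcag
Fzd1: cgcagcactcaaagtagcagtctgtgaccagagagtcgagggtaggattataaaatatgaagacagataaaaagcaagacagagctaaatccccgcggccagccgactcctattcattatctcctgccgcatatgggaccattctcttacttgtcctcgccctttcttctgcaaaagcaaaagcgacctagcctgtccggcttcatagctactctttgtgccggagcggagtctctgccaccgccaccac

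The windows searched ran from 250 bases before to 50 after each RefSeq start, on both strands, and were found for 31 of the 46 members. The *Ror2* window held 1 AP-1 core, written TGAGTCA, 90 bases before the start. An AP-1 core was found in windows of 2 members, *Ror2* and *Wnt5b*, where 7.81% of 32851 promoter windows held one. The TCF/LEF core, written CTTTGAA or CTTTGAT, was found in windows of 3 members, *Wnt5b*, *Wnt11* and *Dkk1*, where 8.65% of all windows held one. None of the 7 called members with a window held a TCF/LEF core. *Fzd9*, also called lower in both comparisons but below 1 CPM in every line, held no AP-1 core either and is not shown. The windows of *Ror2*, *Wnt10b* and *Fzd1* differed in base composition, with 74.7%, 66.3% and 54% G and C, beside a median of 52.7% over all windows. Windows were not found for *Wnt7b*, *Wnt10a*, *Fzd8*, *Lrp5*, *Sfrp1* and *Notum*.

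Of the secreted antagonists, 1 of the 8 in the table was expressed above 1 CPM. *Sfrp1* (ENSMUSG00000031548, chr8:23411502-23449632, plus strand) encodes a secreted protein with a Frizzled-like domain that binds Wnt ligands outside the cell. It was at 5.04, 4.68 and 5.22 CPM in FAK-WT cells, at 78, 79.4 and 85.2 CPM in FAK-/- cells and at 58.1, 57.1 and 57.5 CPM in FAK-kd cells. The spread within each line was small beside the gaps, and the 3 lines did not overlap. On the log2 scale the change was -4.03 over FAK-/- cells (SE 0.10, adjusted p = 1.16e-12) and -3.54 over FAK-kd cells (SE 0.10, adjusted p = 4.3e-12). Between FAK-kd and FAK-/- cells it was -0.49 (SE 0.08, adjusted p = 0.000822), short of the minimum fold change. Per kilobase of the longest transcript, *Sfrp1* ranked behind only *Ryk* among the members in FAK-/- cells, with 18.5 CPM, and in FAK-kd cells, with 13.2 CPM, and was at 1.14 CPM in FAK-WT cells. The other antagonists, *Sfrp5*, *Frzb*, *Wif1*, *Dkk1*, *Dkk2*, *Dkk3* and *Dkk4*, were at most 0.138 CPM in any line, and none was called. *Kremen1*, a receptor that removes LRP co-receptors from the surface with Dickkopf proteins, was at 39.3 ± 1.96 CPM in FAK-WT, 38.1 ± 1.71 CPM in FAK-/- and 43.4 ± 1.58 CPM in FAK-kd cells. FAK-WT over FAK-/- cells gave 0.02 on the log2 scale (95% interval -0.17 to 0.21). *Kremen2* was at most 0.0676 CPM.

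**Figure D3:**
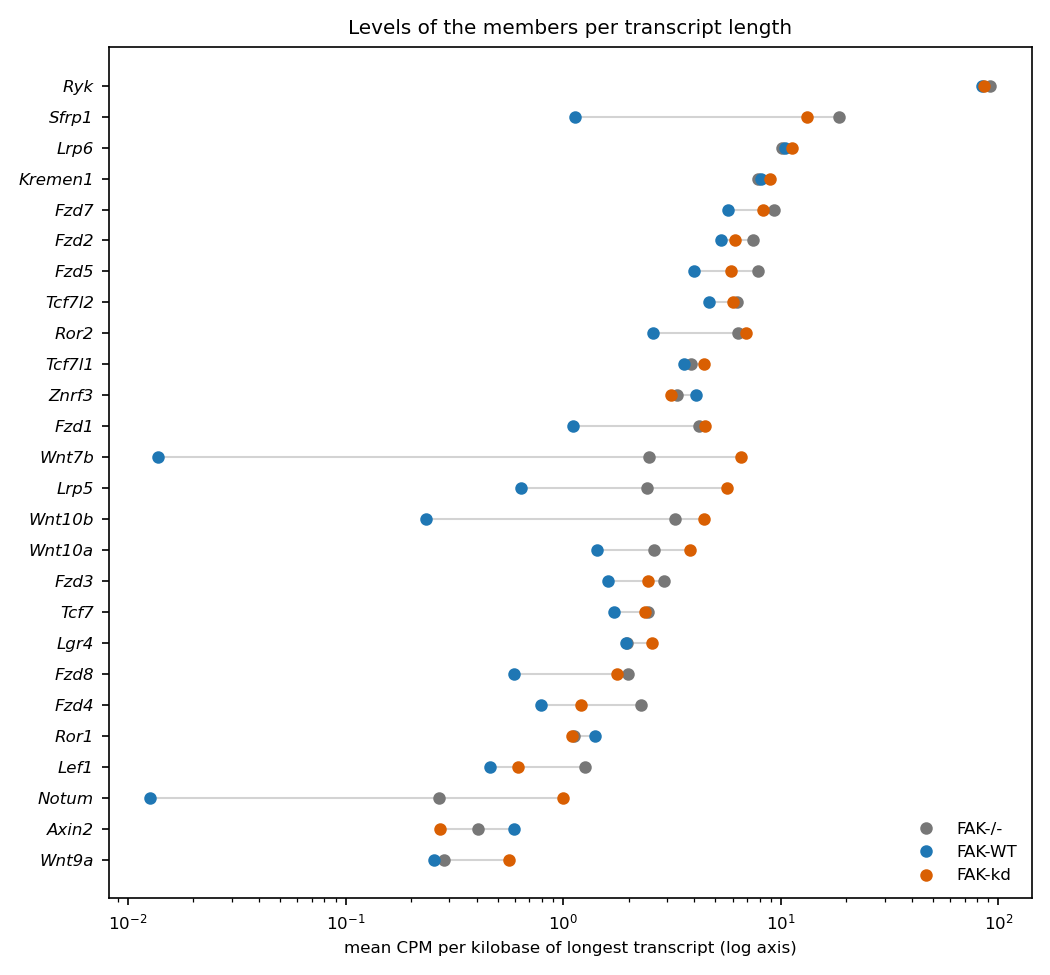
Mean CPM per kilobase of the longest transcript, on a log axis, for the 26 members at 1 CPM or more in a cell line, with 1 point for each line and a grey bar spanning them. *Ryk* is highest, at 84.5 in FAK-WT cells. *Wnt7b*, *Notum*, *Wnt10b* and *Sfrp1* have wide bars with the FAK-WT point at the left end, whereas the points of *Lrp6* and *Kremen1* nearly coincide.

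Among the feedback genes, *Notum* (ENSMUSG00000042988, chr11:120653788-120661175, minus strand), a secreted enzyme that inactivates Wnt ligands by removing their lipid, was called in all 3 comparisons at a low level. It was at 0, 0.0266 and 0.0577 CPM in FAK-WT cells, which are 3 counts in all, at 0.629, 0.552 and 0.608 CPM in FAK-/- cells and at 2.4, 2.4 and 1.82 CPM in FAK-kd cells. The 3 lines did not overlap. From the summed counts the FAK-WT level of *Notum* was 14.6-fold lower than the FAK-/- level (95% interval 4.74 to 73.1, adjusted p from edgeR = 8.91e-05) and 53.6-fold lower than in FAK-kd cells (18.1 to 262, adjusted p from edgeR = 7.84e-07). It was higher in FAK-kd than in FAK-/- cells, by a log2 fold change of 1.87 (SE 0.29, adjusted p = 0.000882). Exons of *Notum* overlap the antisense gene *Notumos* over 708 of 2408 bases, and 33% of its 31-base words also occur in transcripts of other genes. The sources used here do not say that strand entered the counting. *Notumos* was not matched to the table, so reads from the shared bases could have been counted to *Notum* whichever gene they came from. A further 210 bases are shared with *Myadml2os*, also antisense and not matched to the table. The same holds for the 324 of 4898 exon bases that *Wnt7b* shares with *AU022754* on the other strand. It also holds for the 1208 of 8788 that *Lef1* shares with *Gm43352*.

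*Axin2*, a scaffold of the destruction complex widely used as a readout of beta-catenin activity, was low and was not called. It was at 5.04, 1.46 and 1.12 CPM in FAK-WT cells, the first from 4 counts, at 1.83, 1.93 and 1.44 CPM in FAK-/- cells and at 1.08, 0.989 and 1.41 CPM in FAK-kd cells. The lines overlapped, and the log2 fold change was -0.20 over FAK-/- cells (95% interval -0.99 to 0.59) and 0.38 over FAK-kd cells (95% interval -0.42 to 1.17). Changes of about the minimum size lie within these intervals. *Znrf3*, a ubiquitin ligase that clears Frizzled from the surface, was at 25.6 ± 7.26 CPM in FAK-WT, 21.2 ± 1.14 CPM in FAK-/- and 19.7 ± 0.708 CPM in FAK-kd cells, and was not called. *Lgr4*, an R-spondin receptor that opposes it, was at 9.86 ± 3.13, 9.93 ± 0.939 and 12.9 ± 0.669 CPM in the same order and was not called. The wide FAK-WT SDs of both come from FAK-WT replicate 1, at 34 CPM from 27 counts for *Znrf3* and 6.29 CPM from 5 counts for *Lgr4*. FAK-WT replicates 2 and 3 were at 22.2 and 20.8 CPM for *Znrf3* and at 12.2 and 11.1 CPM for *Lgr4*. *Nkd1* and *Nkd2*, inhibitors that act on Dishevelled, were at most 0.04 CPM.

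All 4 TCF/LEF factors, the proteins that bring beta-catenin to DNA, were expressed. *Lef1* (ENSMUSG00000027985, chr3:131110471-131224356, plus strand) was at 2.52, 1.3 and 1.21 CPM in FAK-WT cells, at 4.16, 4.02 and 5.6 CPM in FAK-/- cells and at 2.64, 1.86 and 2.28 CPM in FAK-kd cells. FAK-/- cells stood above both other lines, which overlapped only through FAK-WT replicate 1, at 2 counts. FAK-WT replicates 2 and 3 lay below every FAK-kd library. FAK-WT over FAK-kd cells gave -0.79 on the log2 scale (adjusted p = 0.0558), short of a call. Without FAK-WT replicate 1 it was -0.84 (adjusted p = 0.0312), short of the minimum fold change. Relative to FAK-/- cells, *Lef1* fell by 1.81 on the log2 scale in FAK-WT cells (SE 0.26, adjusted p = 0.000188) and by 1.02 in FAK-kd cells (SE 0.23, adjusted p = 0.0113). The second call is the 1 member lower in FAK-kd cells, and it was lost without FAK-kd replicate 2 (-0.90), FAK-kd replicate 3 (adjusted p = 0.0607) or FAK-/- replicate 3 (-0.86). *Tcf7l2*, the most abundant of the 4 by CPM, was at 17.4 ± 2.38 CPM in FAK-WT, 23.3 ± 1.94 CPM in FAK-/- and 22.5 ± 1.39 CPM in FAK-kd cells. FAK-WT over FAK-/- cells gave -0.51 on the log2 scale (adjusted p = 0.00339). *Tcf7* and *Tcf7l1* had log2 fold changes of -0.65 (adjusted p = 0.02) and -0.53 (adjusted p = 0.0726) over FAK-/- cells. Over FAK-kd cells *Tcf7l2*, *Tcf7* and *Tcf7l1* gave -0.46 (adjusted p = 0.007), -0.60 (adjusted p = 0.0289) and -0.72 (adjusted p = 0.0164). For *Tcf7l1*, FAK-WT replicate 1 was at 17.6 CPM from 14 counts, against 7.72 and 7.56 CPM in replicates 2 and 3. Without that library *Tcf7l1* gave -0.63 over FAK-/- (adjusted p = 0.0109) and -0.81 over FAK-kd cells (adjusted p = 0.00176).

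Other genes of the pathway, from further ligands and surface modulators to the destruction complex and target genes, were counted for comparison, 76 of them in the table. In FAK-WT cells 7 of the 76 were lower and 1 was higher than in FAK-/- cells, and 2 were lower and 0 higher than in FAK-kd cells, to be read against the same 3.06%, 2.32%, 2.89% and 2.37% of all genes. Their median log2 fold change was -0.15 over FAK-/- and -0.05 over FAK-kd cells. In FAK-kd cells 4 were lower and 1 was higher than in FAK-/- cells, beside 1.09% and 0.914% of all genes. DESeq2 called 4 lower and 1 higher over FAK-/- cells, and 2 lower and 0 higher over FAK-kd cells. In FAK-kd over FAK-/- cells it called 3 lower and 0 higher, where it called 131 lower and 138 higher of all 19044 genes. At an unadjusted p below 0.05 in edgeR FAK-WT over FAK-/- cells gave 26 lower and 6 higher, and FAK-WT over FAK-kd cells gave 17 lower and 8 higher. The percentages above do not apply to these unadjusted counts, for which all genes were not counted. None of the 14 genes of the destruction complex and the Dishevelled proteins, which pass on the signal inside the cell, was called in any comparison by edgeR or by DESeq2. At the shares of all genes given above, 14 genes leave little room for a call, so the 0 is no result about this list. By adjusted p alone in edgeR, 1 was higher and 1 lower over FAK-/- cells, where 8.01% and 9.96% of all genes were. Over FAK-kd cells 1 was higher and 3 were lower, where 7.58% and 10.2% were. At an unadjusted p below 0.05 in edgeR, 2 of the 14 were higher and 5 lower in FAK-WT over FAK-/- cells, 1 was higher and 3 lower over FAK-kd cells, and 2 were higher and 3 lower in FAK-kd over FAK-/- cells. *Ctnnb1*, which encodes beta-catenin, was at 806, 824 and 796 CPM in FAK-WT cells, at 902, 916 and 874 CPM in FAK-/- cells and at 956, 943 and 965 CPM in FAK-kd cells. Its FAK-WT libraries were lowest by a small margin of -0.15 on the log2 scale against FAK-/- cells (adjusted p = 0.0882) and -0.24 against FAK-kd cells (adjusted p = 0.00784).

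The called genes that reached a mean of 1 CPM in a line follow by list. In the planar cell polarity and calcium branch 3 of 16 genes were lower when FAK-WT cells were set against FAK-/- cells. *Ptk7*, a co-receptor of that branch, was at 0, 0.133 and 0.0288 CPM in FAK-WT cells, at 2.31, 2.29 and 2.3 CPM in FAK-/- cells and at 1.05, 1.11 and 1.38 CPM in FAK-kd cells. The log2 fold changes were -4.75 (adjusted p = 3.35e-06) and -3.79 (adjusted p = 3.78e-05). *Vangl2*, a core polarity protein, and *Nfatc2*, a transcription factor that responds to calcium, were lower than in FAK-/- cells by log2 fold changes of -1.61 (adjusted p = 0.000258) and -1.31 (adjusted p = 0.0139), and *Vangl2* was also called lower in FAK-kd than in FAK-/- cells, just past the minimum (adjusted p = 0.00924). Among 13 genes of beta-catenin and its nuclear partners, *Tle2*, a corepressor, was lower in FAK-WT cells whichever line they were compared with, at -1.13 (adjusted p = 0.00163) and -1.09 (adjusted p = 0.00198).

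Among 12 other secreted or surface modulators, *Apcdd1*, a membrane inhibitor of Wnt signaling, was the single pathway gene called higher in the comparison of FAK-WT with FAK-/- cells. It was at 127, 136 and 135 CPM in FAK-WT cells, at 66.8, 65.5 and 68.3 CPM in FAK-/- cells and at 78.8, 81.8 and 84 CPM in FAK-kd cells. FAK-WT cells stood above both other lines, and the difference from FAK-/- cells was 1.00 on the log2 scale (adjusted p = 4.44e-08) just at the minimum, and that from FAK-kd cells was 0.72 (adjusted p = 1.59e-06). *Gpc4*, a cell surface proteoglycan, was lower in FAK-kd than in FAK-/- cells, by a log2 fold change of -1.16 (adjusted p = 9.03e-06). Of 11 genes commonly used as beta-catenin targets, *Bambi*, a decoy receptor of the TGF-beta family, was lower than in FAK-/- cells both in FAK-WT cells (-1.42, adjusted p = 0.00222) and in FAK-kd cells (-1.28, adjusted p = 0.00462), and 0 were called between FAK-WT and FAK-kd cells by edgeR and 0 by DESeq2, with 2 higher and 2 lower at an unadjusted p below 0.05 in edgeR.

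**Figure D4:**
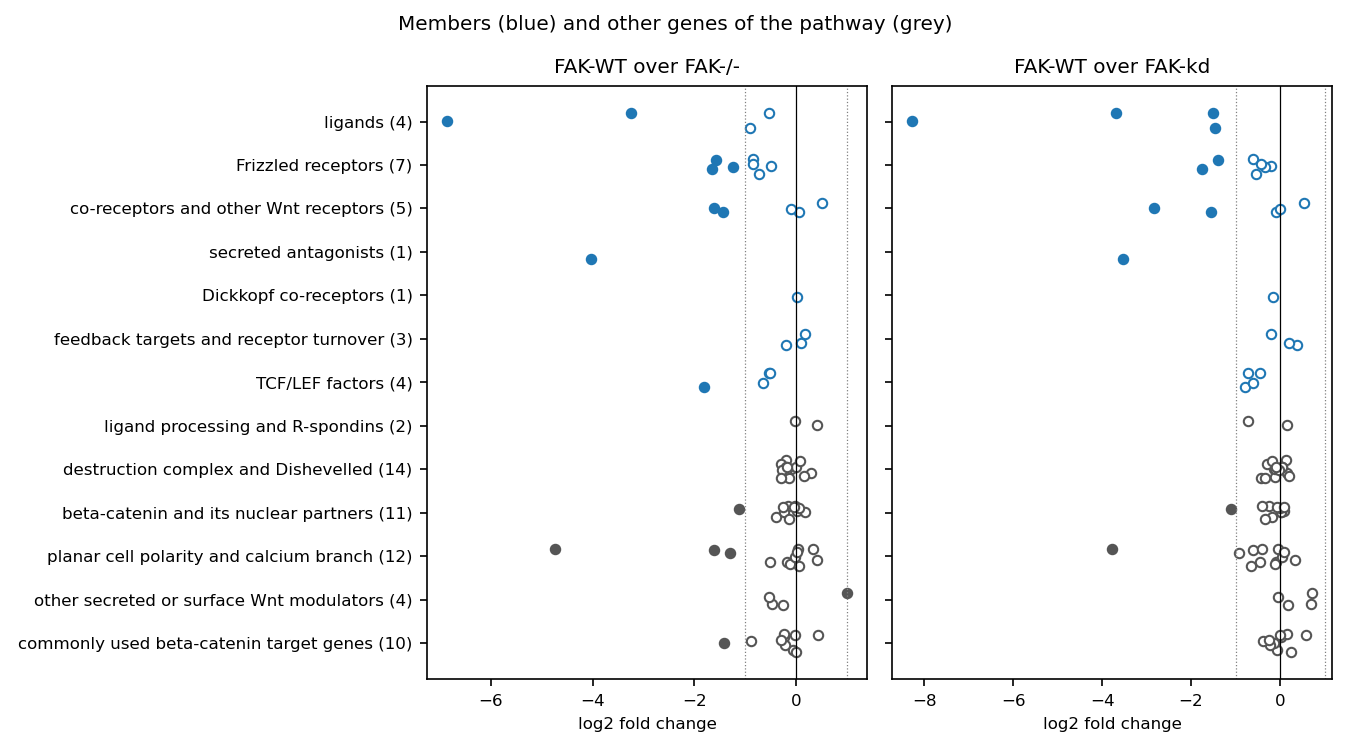
Log2 fold changes in FAK-WT over FAK-/- cells (left) and over FAK-kd cells (right) for the members (blue) and the other pathway genes (grey) with a mean of at least 1 CPM over the 3 lines, 1 row for each role or list with its number of genes and points spread vertically for legibility only. Filled points are called, and dotted lines mark a log2 fold change of 1 in size. The filled blue points lie among ligands, Frizzled receptors, co-receptors, *Sfrp1* and *Lef1*.

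Where the values of FAK-WT replicate 1 are coarse, the calls did not rest on that library. Without it 11, 11 and 4 members were called in the 3 comparisons, and these were the same genes as with it. Markers of other cell types moved in both directions. Of the 6 fibroblast markers in the table, *Pdgfra* was called lower in FAK-WT cells (-1.44 over FAK-/- and -1.11 over FAK-kd cells on the log2 scale) and *Dcn* was called higher over FAK-/- cells (2.24, from at most 0.506 CPM in any library). Of the 4 endothelial markers *Cdh5* was called higher in both comparisons (3.42 and 6.04), at a mean of 1.49 CPM in FAK-WT cells, while *Pecam1*, *Kdr* and *Tek* were near 0. Of the 9 keratinocyte markers *Lamb3* was called higher over FAK-/- cells (4.10) and *Krt6a* over FAK-kd cells (3.09), both below 1 CPM in every line. In FAK-kd over FAK-/- cells the keratinocyte marker *Krt8* (2.13) and the fibroblast marker *Col1a2* (1.29) were called higher. Their means in FAK-kd cells were 1.02 and 6.11 CPM. The part of these markers in the results was not tested.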

How the data were processed

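RNA-seq of 9 libraries, 3 for each of 3 cell lines, was used, and cell lines and replicate numbers were taken from the sample titles. The authors pseudoaligned paired-end reads with kallisto 0.43.1 and summarized transcripts by gene in tximport. The deposited table holds these estimated counts, whole numbers per Ensembl gene that were not scaled to library size, with genes at zero throughout removed. The transcriptome release is not given in the sources used here. The submitters' notes name mm10, and symbols and positions were taken from GENCODE M21 of that build.

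The deposited counts were tested with edgeR 4.0.16 in R 4.3.3 (TMM, glmQLFit and glmQLFTest, all 9 libraries in 1 fit with cell line as the only factor, no filter), with Benjamini-Hochberg adjustment over 19044 genes. The steps were tested on simulated data. The members and lists were chosen with earlier results of these data known. Called members with a mean of at least 1 CPM in a line are given in every library, those at 20 CPM or more with no call by group means, and the rest by count and range within the role. *Ror1*, *Axin2*, *Lgr4*, *Tcf7*, *Tcf7l1*, *Fzd9*, *Ctnnb1* and *Pdgfra* are described beyond that rule, chosen after their values were seen. Ratios of summed counts have exact 95% binomial intervals. Level per length is mean CPM per kilobase of the longest annotated transcript. Protein sequences were not used here.

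Alternatives were DESeq2 1.42.0, its size factors in edgeR, library size alone, filterByExpr, a floor of 10 counts per library, a separate fit for each pair of lines, the replicate number as a block, no minimum fold change, glmTreat, and leaving out each library in turn.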

Additional observations from a re-analysis of the deposited data

How the results depend on the processing

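The 13 called members were followed one by one, each in the 3 comparisons, through every alternative but the changed thresholds (no minimum fold change and glmTreat, for which members were only counted). None of these 39 log2 fold changes turned its direction, and 33 stayed on their side of the threshold. With no minimum fold change, FAK-WT cells had 1 member higher and 18 lower than FAK-/- cells, 1 higher and 17 lower than FAK-kd cells, and FAK-kd cells had 4 lower than FAK-/- cells. With at least 10 counts in every library, which 11 members have (24 without FAK-WT replicate 1), 1 member (*Ror2*) was lower than in FAK-/- and 1 (*Ror2*) than in FAK-kd cells, where 81 and 69 of 8083 genes were, and 0 were higher and 0 lower in FAK-kd over FAK-/- cells. Every other called member had fewer than 10 counts in the shallow FAK-WT replicate 1 and was left out before testing. The smaller number of calls at this floor therefore says nothing about those members. glmTreat, whose null hypothesis is a change of up to 1 on the log2 scale, left 9 members lower than in FAK-/- cells and 7 lower than in FAK-kd cells. It left 0 higher and 0 lower in FAK-kd over FAK-/- cells, and its calls over all genes were not counted. Leaving out each library in turn gave 10 to 11 members lower and 0 higher than in FAK-/- cells, 9 to 11 lower and 0 higher than in FAK-kd cells, and 3 to 4 higher and 0 to 1 lower in FAK-kd over FAK-/- cells. The lower call lost in the last was *Lef1*. Over all 19044 genes these fits called 435 to 582 lower and 325 to 460 higher than in FAK-/- cells. Against FAK-kd cells they called 441 to 609 lower and 334 to 541 higher. In FAK-kd over FAK-/- cells they called 128 to 194 higher and 134 to 214 lower. *Fzd9* lost its calls under DESeq2 and without FAK-WT replicate 2 or 3, and its call over FAK-/- cells also without FAK-/- replicate 3. *Wnt9a* lost its call over FAK-kd cells without FAK-WT replicate 3 and was called higher in FAK-kd over FAK-/- cells without FAK-/- replicate 3 (1.21, edgeR adjusted p = 0.0139), and *Wnt10a* was called lower than in FAK-/- cells without FAK-WT replicate 2 (-1.06, edgeR adjusted p = 0.00807).

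With the replicate number as a block, 11 members were lower than in FAK-/- and 11 than in FAK-kd cells with 0 higher, and 3 were higher and 1 lower in FAK-kd over FAK-/- cells, so no count of members changed. Of all 19044 genes, 562 were then lower and 379 higher than in FAK-/- cells, and 519 lower and 371 higher than in FAK-kd cells. In FAK-kd over FAK-/- cells 170 were higher and 189 lower. No pairing of the samples by number was seen. Deviations from the group means of libraries with the same number had a mean r of -0.00768 across genes (9 pairs). Those with different numbers had 0.00353 (18 pairs), and 0 of 9 libraries correlated best with its own number. The coarse values of FAK-WT replicate 1 enter the mean of the FAK-WT group, so pairs with a FAK-WT library could show little either way. At the depth of FAK-WT replicate 1, members below 3.78 CPM could not be told from absent in that library.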
